A study of Mus musculus with 29 samples.

Results

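The genes described here are the Wnt ligands, their receptors, their secreted inhibitors and a small set of pathway targets and nuclear factors, as measured in the mouse uterus in early pregnancy. They were chosen by name: every array gene called Wnt, Fzd, Sfrp or Dkk with a number, together with Lrp5, Lrp6, Wif1, Rspo1, Rspo3, Axin2, Lef1, Tcf7 and Sp5. The rule gave 46 genes with 62 probes, of 27673 gene names and 41174 probes on the array. They comprise 19 ligands, 12 receptors, 9 inhibitors, 2 R-spondins and 4 target or nuclear factor genes. Where a gene had several probes, the one brightest over all samples stood for it.

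The samples were uteri of CD-1 mice, an outbred stock. As pups, from postnatal day 1 to 5, the females were given either corn oil alone, the control called CON, or 50 mg/kg/day of genistein, called GEN. Genistein is an isoflavone of soy that binds estrogen receptors. No genetic change is named for either exposure, and the labels set the groups apart by exposure and by gestation day (GD). GD1.5 had 3 CON and 4 GEN samples, GD3.5 had 3 of each exposure, and GD4.5 and GD5.5 had 4 of each, all on single-colour arrays that held 1 sample. In the mouse these days run from before the embryo reaches the uterus, through attachment, to the first decidua. The series title names failed implantation, uterine patterning and gland formation after neonatal genistein, and the comparisons of exposures on each day bear on that question. The labels give each sample a number but do not say whether each is a separate animal, so every p-value measures the spread between these samples only.

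Wnt proteins are secreted lipid-modified ligands that bind Frizzled receptors and the coreceptors Lrp5 and Lrp6. In the canonical branch this stabilises beta-catenin, which then acts with Lef1, Tcf7 and related factors on target genes such as Axin2 and Sp5. Secreted frizzled-related proteins and Wif1 bind the ligands, several Dickkopf proteins bind the coreceptors, and R-spondins raise the amount of receptor at the cell surface. In the uterus the pathway is known for patterning of the female tract, for the formation of endometrial glands and for decidualization of the stroma.

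Levels are given as log2 intensity relative to the 75th percentile of all spots of the same array, so a level of 0 is that percentile and differences are on the log2 scale. Values of a group are listed in the order of its sample numbers, which are 1, 3 and 4 for GEN at GD3.5. The share of spots well above background was 65.5 to 80.9%, and the precision is limited by the number of arrays. Samples of one group correlated at 0.968 to 0.995 across genes, and no 2 were identical. Slides held either the 2 earlier or the 2 later days, so slide and day cannot be told apart between GD3.5 and GD4.5. CON 3 of GD3.5 lay on a slide and a scan of its own. The 5 uterine marker genes (Esr1, Pgr, Hoxa10, Hoxa11 and Hoxd10) were well above background on all 29 arrays, as the tissue label says.

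Markers of endometrial glands were lower in GEN: all 7 measured had a negative difference on every day. Their medians were -1.84, -2.39, -2.11 and -0.86 from the earliest to the latest day. In the mean of the 4 days 5 of 7 passed the threshold, where 1.04% of all genes did. Their summed level was 4.47 to 7.005 in CON and 1.40 to 4.40 in GEN at GD4.5. These markers were chosen with earlier results of these data known, so their shared direction is no support of its own. For 10 markers of simple epithelium the medians were -0.14, -0.0093, -0.49 and 0.21 on the same days. In whole uterus, fewer cells of a type and less RNA per cell cannot be told apart. Adipocyte markers were high (summed level above 3) in 8 arrays: CON 1, GEN 1 and GEN 4 of GD1.5, CON 1, CON 2, GEN 2 and GEN 4 of GD4.5 and CON 3 of GD5.5.

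One target gene, Sp5, was lower in GEN than in CON uteri, and no other of the 46 genes passed the test between the exposures. Tests were made with limma over all genes, and a gene is called here at an adjusted p (Benjamini-Hochberg) under 0.05. Averaged over the 4 days, 43 of the 46 genes passed the filter on background and 1 was called, where 1.04% of all 23352 genes tested were called. The median difference of the 43 was -0.0063, against -0.021 for all genes. By day, 0 of 38 were called at GD1.5 (0.0975% of all genes tested), 0 of 38 at GD3.5 (0.127%), 1 of 39 at GD4.5 (0.12%) and 0 of 40 at GD5.5 (0%). At an unadjusted p under 0.05 there were 5, 8, 6 and 4 on these days and 13 in the average, where the shares of all genes were 6.3, 5.69, 9.66, 5.5 and 9.9%. The 13 include Wif1 and Wnt8a, which passed the filter through CON arrays alone. With normexp background correction 16 members were called at GD5.5, 15 higher and 1 lower, a setting that moved the median of all genes on that day by 0.282, and 0 were called with normexp refitted.

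**Figure D1:**
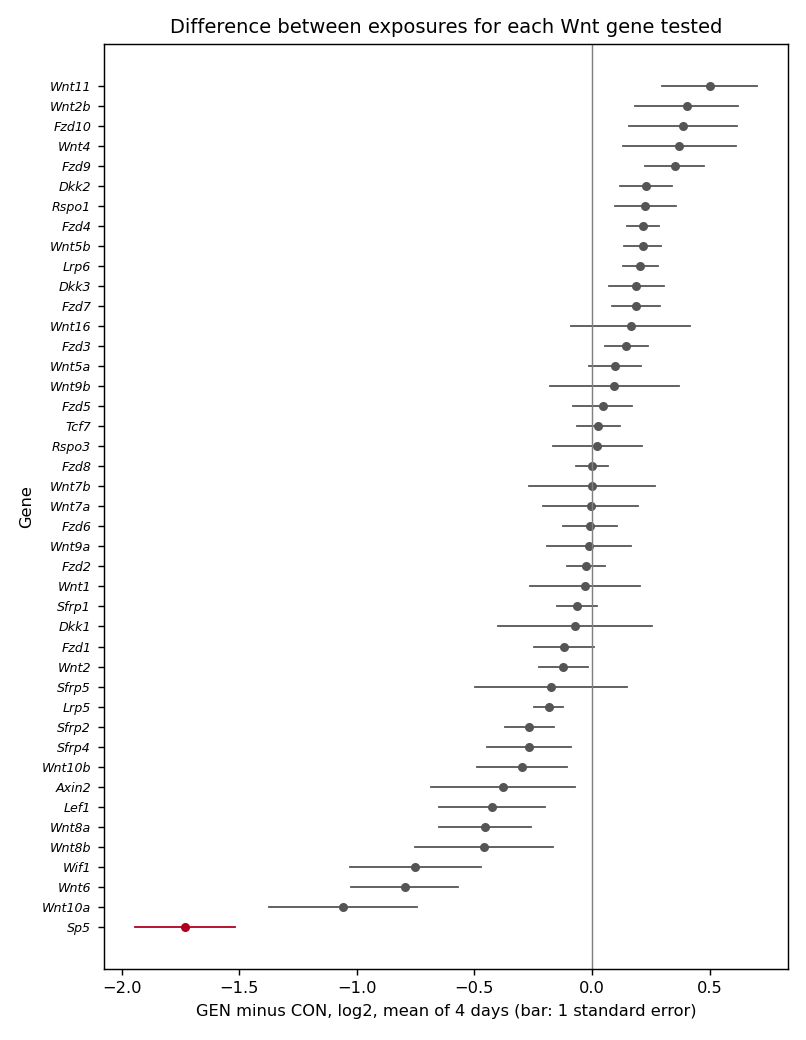
Each point is the difference GEN minus CON in log2, averaged over the 4 gestation days, for 1 of the 43 genes tested, ordered by size, and the bar is 1 standard error. Sp5 (red, the gene past the threshold) lies lowest at -1.73, followed by Wnt10a at -1.06 and Wnt6 at -0.80, and Wnt11 lies highest at 0.50.

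Sp5, measured by 1 probe with no genome position in the files, encodes a zinc finger transcription factor and is a direct target of beta-catenin. At GD1.5 its level was -0.26, -0.082 and -0.23 in the CON samples and -1.15, -2.35, -0.80 and -2.05 in the GEN samples. At GD3.5 the CON samples had -1.81, -1.07 and -1.97 and the GEN samples -4.36, -3.39 and -3.22. Every GEN sample of both days lay below every CON sample of its day. At GD4.5 the levels were -1.38, -1.98, -1.63 and -1.12 in CON and -4.50, -4.40, -4.18 and -2.40 in GEN, and at GD5.5 they were -3.79, -3.70, -3.19 and -3.26 in CON and -4.02, -4.95, -5.11 and -4.46 in GEN. The exposures again did not overlap on either day, although GEN 4 of GD4.5 lay closer to the CON samples than to the other GEN samples. Groups without overlap were found for 8.33, 20.3, 4.15 and 1.72% of all genes on the 4 days in turn.

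The difference of Sp5 averaged over the days was -1.73 (SE 0.212, adjusted p = 9.38e-05), a 3.32-fold lower level in GEN. By day it was -1.40 at GD1.5 (SE 0.431), -2.04 at GD3.5 (SE 0.461), -2.34 at GD4.5 (SE 0.40) and -1.15 at GD5.5 (SE 0.399). Of the days, GD4.5 alone passed the threshold (adjusted p = 0.0140, against 0.385, 0.0909 and 0.623 on the other 3 days in the same order). The change of the difference between successive days did not pass the threshold, with -0.65, -0.30 and 1.19 (adjusted p = 1.00, 1.00 and 0.661). The last of these, towards a smaller difference at GD5.5, had an unadjusted p under 0.05. Where CON and GEN of a day lay on the same slide, the 10 differences by day and slide were between -3.06 and -0.643. Their sign was fixed by the lack of overlap on each day and adds no support. The call at GD4.5 was lost without CON 1, CON 3, CON 4, GEN 1 or GEN 2 of that day (adjusted p = 0.0509 to 0.0754), in a fit of the 8 arrays of that day alone (0.323) and with normexp background correction (-1.50, 0.0911), and GD3.5 was called without GEN 4 of GD4.5 (0.0188) and with normexp refitted without spots of high local background (0.0238). At GD5.5 the direction turned with normexp (0.72), with which the change of the difference from GD4.5 was called (2.22, adjusted p = 0.0403), and not with normexp refitted. The averaged call was kept in every alternative run for it. The gland markers above moved the same way as Sp5, and their part in its difference was not tested.

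**Figure D2:**
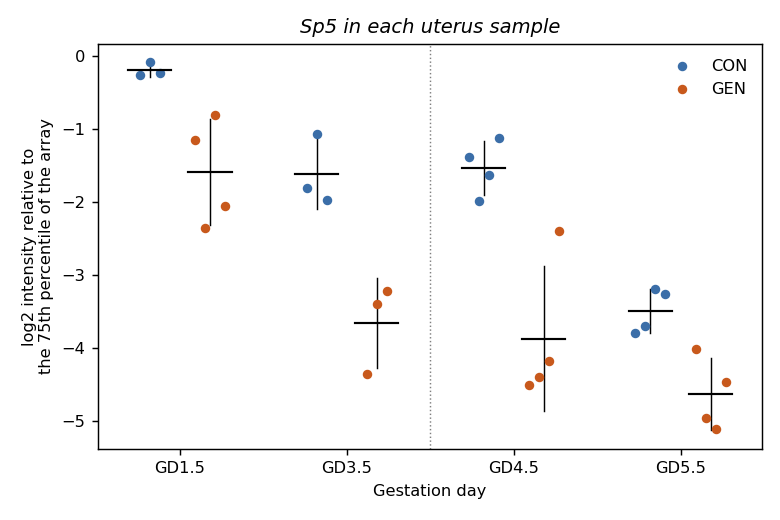
Sp5 level in each of the 29 uterus samples, as log2 intensity relative to the 75th percentile of the array, by gestation day, with CON in blue and GEN in orange. Bars are the group mean and 1 SD, and the dotted line parts the days that shared no slide. The GEN points lie below the CON points on each day, with GEN 4 of GD4.5 at -2.40 the nearest to its CON group among the GEN samples of that day.

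Sp5 also fell with gestation. In CON it fell by 1.96 from GD4.5 to GD5.5 (SE 0.40, adjusted p = 8.44e-04), and in GEN the difference was -0.76 (SE 0.399, adjusted p = 0.169). From GD1.5 to GD3.5 it fell by 2.07 in GEN (SE 0.431, adjusted p = 0.00535), where the CON difference was -1.42 (SE 0.461, adjusted p = 0.111). In the tests given above, the differences between these pairs of changes did not pass the threshold.

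The promoter of Sp5 is shown because its gene carries the difference between exposures, and those of Wnt11 and Dkk1 because these genes changed with gestation and their windows also held the searched letters. The letters were CTTTGAA and CTTTGAT, the core of the site bound by Lef1 and Tcf7 with beta-catenin, on both strands, in windows from 250 bases before to 50 after the gene start (RefSeq, build GRCm38.p6). Of the 46 members 31 had a window, and 4 of these held a match (12.9%), against 9.88% of the 27025 genes with a window and 8.65% of all 32851 windows. A match is a description of these letters and not a shown site. Capitals mark the match, and each sequence runs 5′ to 3′ on the strand of the gene.
Sp5, chr2:70474673-70474972, plus strand: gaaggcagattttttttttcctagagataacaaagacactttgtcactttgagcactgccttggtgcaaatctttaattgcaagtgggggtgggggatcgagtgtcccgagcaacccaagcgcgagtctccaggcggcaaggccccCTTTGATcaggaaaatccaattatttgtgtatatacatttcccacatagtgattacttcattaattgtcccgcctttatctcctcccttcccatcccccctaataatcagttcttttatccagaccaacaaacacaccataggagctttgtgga
Wnt11, chr7:98834862-98835161, plus strand: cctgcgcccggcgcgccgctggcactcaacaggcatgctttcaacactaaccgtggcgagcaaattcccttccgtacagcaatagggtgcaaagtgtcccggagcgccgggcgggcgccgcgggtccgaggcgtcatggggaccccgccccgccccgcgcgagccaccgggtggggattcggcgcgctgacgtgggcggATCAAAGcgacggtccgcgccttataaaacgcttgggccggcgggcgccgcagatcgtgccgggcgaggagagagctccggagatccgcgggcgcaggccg
Dkk1, chr19:30549447-30549746, minus strand: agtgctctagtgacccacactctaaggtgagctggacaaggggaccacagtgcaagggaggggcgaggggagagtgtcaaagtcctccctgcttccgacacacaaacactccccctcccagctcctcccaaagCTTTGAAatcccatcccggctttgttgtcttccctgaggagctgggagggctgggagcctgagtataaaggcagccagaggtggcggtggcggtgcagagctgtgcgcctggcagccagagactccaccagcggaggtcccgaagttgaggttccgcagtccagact
Counted from the gene start, the first base of the match lay at -104 in Sp5, at -51 in Wnt11, where CTTTGAT is read on the other strand, and at -117 in Dkk1. Wnt5b also held a match, at -71.

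The other 3 genes of this group showed no such difference. Axin2, a scaffold of the complex that degrades beta-catenin and a common readout of the pathway, stood at -0.27, -0.51 and -0.87 in CON and -0.89, -5.07, -0.68 and -0.76 in GEN at GD1.5. GEN 2 alone was low, and the day's difference of -1.30 (SE 0.622, adjusted p = 0.789) rests on it: without that sample it was -0.22. At GD3.5 the levels of Axin2 were -1.03, -0.83 and -0.35 in CON and -1.32, -0.98 and -0.88 in GEN, at GD4.5 -0.92, -1.71, -1.23 and -1.33 and -1.41, -1.87, -1.34 and -1.22, and at GD5.5 -2.51, -2.51, -2.33 and -2.26 and -2.32, -1.95, -1.95 and -2.33. The exposures overlapped on all 4 days. Lef1, a DNA-binding partner of beta-catenin, had an averaged difference of -0.43 (SE 0.226, adjusted p = 0.577), and Tcf7, its relative, had 0.026 (SE 0.0905).

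Lef1 levels were 0.79, -0.12 and -1.17 in CON and -1.62, -1.33, -0.34 and -0.20 in GEN at GD1.5, and 1.24, 0.90 and 1.12 and 0.42, 0.67 and 0.70 at GD3.5. They were 1.33, 2.10, 1.21 and 1.95 and 2.08, 1.99, 1.04 and 0.21 at GD4.5, and 2.77, 2.33, 1.60 and 2.59 and 2.65, 2.01, 1.38 and 2.45 at GD5.5. GEN lay below CON in every sample at GD3.5 only. Tcf7 fell from GD4.5 to GD5.5 in both exposures, by 0.61 in CON (SE 0.170, adjusted p = 0.00853) and 0.66 in GEN (SE 0.170, adjusted p = 0.00967). Its levels went from -1.46, -0.99, -1.52 and -0.98 to -1.82, -2.0, -1.87 and -1.73 in CON and from -0.89, -1.04, -1.27 and -1.31 to -1.61, -1.71, -1.87 and -1.93 in GEN, without overlap between the days. The Tcf7 call in CON was lost with the array median as the scale (-0.52, adjusted p = 0.0690) and the call in GEN with the slide as a fixed block (0.0524) and with normexp (-0.15, 0.481).

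Among the 19 ligands 17 were tested in the average and none was called. The lowest averaged differences were those of Wnt10a and Wnt6, which are next to each other on chromosome 1 (probes at 75043739 to 75043798 and 75024567 to 75024626, build mm7). Wnt6, a ligand of uterine epithelium and stroma, stood at 0.41, -0.57 and -0.33 in CON and -2.67, -1.19, -1.93 and -1.13 in GEN at GD1.5, and at 0.53, -0.55 and -0.26 and -1.31, -1.11 and -0.96 at GD3.5. All GEN samples lay below all CON samples on both days, by 1.56 on average at GD1.5 (SE 0.463, adjusted p = 0.332) and 1.03 at GD3.5 (SE 0.495, adjusted p = 0.867). At GD4.5 Wnt6 was 0.85, 0.36, 0.33 and 0.47 in CON and 1.49, 1.24, -0.33 and -0.50 in GEN, with GEN 1 and GEN 2 above every CON sample and GEN 3 and GEN 4 below. The averaged difference of Wnt6 was -0.80 (SE 0.228, adjusted p = 0.106), not past the threshold. Its other probe gave -0.71.

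Wnt10a, a ligand known from skin appendages and teeth, stood at -3.77, -3.96 and -4.29 in CON and -4.90, -4.20, -3.97 and -4.36 in GEN at GD1.5, and at -2.02, -3.43 and -2.91 and -4.40, -3.58 and -3.96 at GD3.5, where the exposures did not overlap. At GD4.5 its levels were -1.55, -4.05, -1.51 and -1.65 in CON and -3.59, -3.1, -3.93 and -3.87 in GEN. Of the CON samples CON 2 alone lay below every GEN sample, and the other 3 lay above them all. The difference of Wnt10a was -1.06 in the average (SE 0.315, adjusted p = 0.123) and -1.43 at GD4.5 (SE 0.593, adjusted p = 0.413). The average passed the threshold without CON 2 of GD4.5 (adjusted p = 0.0317) or without GEN 4 of GD5.5 (0.0144), and that of Wnt6 without GEN 4 of GD5.5 (0.0341).

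Wnt11, a ligand of the non-canonical branch and a gene of gland epithelium in the uterus, had the highest averaged difference, 0.50 (SE 0.202, adjusted p = 0.352). At GD1.5 it stood at -2.01, -1.17 and -1.32 in CON and -0.51, -1.18, 0.18 and 0.42 in GEN, a difference of 1.23 (SE 0.410, adjusted p = 0.458), with GEN 2 inside the CON range. Wnt5b, also of the non-canonical branch, had 0.22 (SE 0.0797). Wnt5a, its close relative with a role in gland formation, had 0.10 (SE 0.112) and ranged from -2.77 to -1.40 over all samples. Wnt5b at GD3.5 had 0.26, -0.00020 and 0.071 in CON and 0.44, 0.44 and 0.35 in GEN, without overlap. Wnt8a had -0.46, but its probe was well above background on 3 arrays only, all of CON. It passed the filter through the exposure in which it was higher, so its p-value is no support of its own.

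From GD4.5 to GD5.5 the ligands changed far more than between exposures. In CON 4 of 16 tested ligands rose and 4 fell, and in GEN 3 of 15 rose and 1 fell. Over all 46 genes the counts were 8 rising and 11 falling of 41 tested in CON, where 30.9% of all genes were called, 16.5% rising and 14.4% falling. In GEN they were 8 rising and 7 falling of 40, where 22.4% of all genes were called, 13.2% rising and 9.2% falling. The rising members of each exposure include Dkk1, which passed the filter only through GD5.5, the day on which it was high. Whether the members' shares differ from those of all genes was not tested.

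Wnt4, a ligand required for decidualization and for early development of the female tract, went from -1.31, -0.37, -1.59 and -1.95 to 2.74, 2.75, 2.75 and 2.35 in CON and from 0.52, 0.73, -1.50 and -1.53 to 3.19, 2.36, 1.51 and 2.89 in GEN. All GD5.5 samples lay above all GD4.5 samples. It rose by 3.95 in CON (SE 0.451, adjusted p = 1.98e-06) and by 2.93 in GEN (SE 0.451, adjusted p = 2.11e-04), 15.5-fold and 7.63-fold. At GD4.5 GEN 1 and GEN 2 stood above every CON sample.

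Wnt6 reached 4.79, 4.73, 5.01 and 4.14 in CON and 3.99, 3.76, 3.46 and 5.21 in GEN at GD5.5, all above its GD4.5 levels. It rose by 4.16 (SE 0.430, adjusted p = 5.85e-07) in CON and 3.63 (SE 0.429, adjusted p = 2.18e-05) in GEN. Its neighbour Wnt10a reached 2.75, 3.28, 3.19 and 1.96 in CON and 1.31, 1.47, -0.29 and 3.65 in GEN. It rose by 4.98 (SE 0.593, adjusted p = 3.16e-06) in CON and 5.16 (SE 0.592, adjusted p = 1.87e-05) in GEN, 31.6-fold and 35.7-fold. In GEN at GD5.5 sample 4 was the highest and sample 3 the lowest for Wnt10a.

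Wnt7a, a ligand of the luminal epithelium known for patterning of the uterus and for gland formation, fell. It went from -0.77, -1.15, -0.97 and -1.42 to -3.74, -4.03, -4.33 and -3.51 in CON and from -1.74, -2.52, -1.43 and -0.64 to -3.21, -3.42, -3.54 and -3.98 in GEN, without overlap between the days. It fell by 2.83 in CON (SE 0.378, adjusted p = 1.24e-05) and fell by 1.95 in GEN (SE 0.378, adjusted p = 0.00142), where the call was lost with normexp (-0.36, adjusted p = 0.418). Between exposures Wnt7a did not pass the threshold on any day, with -0.15, 0.27, -0.51 and 0.37 (adjusted p = 1.00, 1.00, 0.738 and 1.00). Simple epithelium markers fell over the same days, 6 of 10 called lower in CON with a median of -1.28, where 14.4% of all genes fell, and 3 of 10 in GEN with a median of -0.42, where 9.2% fell, and their part in these falls was not tested.

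Wnt11, Wnt16 and Wnt9a fell in CON and did not pass the threshold in GEN. Wnt11 went from -0.27, 1.00, 0.97 and -0.12 to -0.62, -1.22, -1.70 and -0.88 in CON (-1.50, SE 0.380, adjusted p = 0.00464) and from 0.65, 0.25, 0.23 and -0.18 to 0.69, -0.40, -0.56 and -1.31 in GEN (-0.63, adjusted p = 0.233). Wnt16, a ligand known from bone and skin, went from -0.47, 0.44, -1.14 and -0.059 to -2.07, -2.44, -2.64 and -1.56 in CON (-1.87, SE 0.476, adjusted p = 0.00472) and from 0.24, 0.036, -0.041 and -1.94 to -0.61, -1.39, -1.05 and -2.59 in GEN (-0.98, adjusted p = 0.137). In GEN both genes overlapped between the days. Wnt9a went from -0.78, -1.47, 0.043 and -1.24 to -2.79, -2.02, -2.04 and -2.16 in CON (-1.39, SE 0.337, adjusted p = 0.00320), and its GEN difference was -0.91 (adjusted p = 0.0538). The differences between the exposures' changes were 0.86, 0.88 and 0.48 (adjusted p = 0.744, 0.789 and 0.848), so these 3 genes were not shown to differ between CON and GEN. Wnt2, a stromal ligand, rose by 0.74 in CON (SE 0.196, adjusted p = 0.00615) from -1.26, -1.41, -0.98 and -1.14 to -0.28, 0.081, -0.77 and -0.88, a call lost in a fit of the 8 CON arrays of these days alone (adjusted p = 0.0521) and without the arrays of high adipocyte marker level (0.0563).

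**Figure D3:**
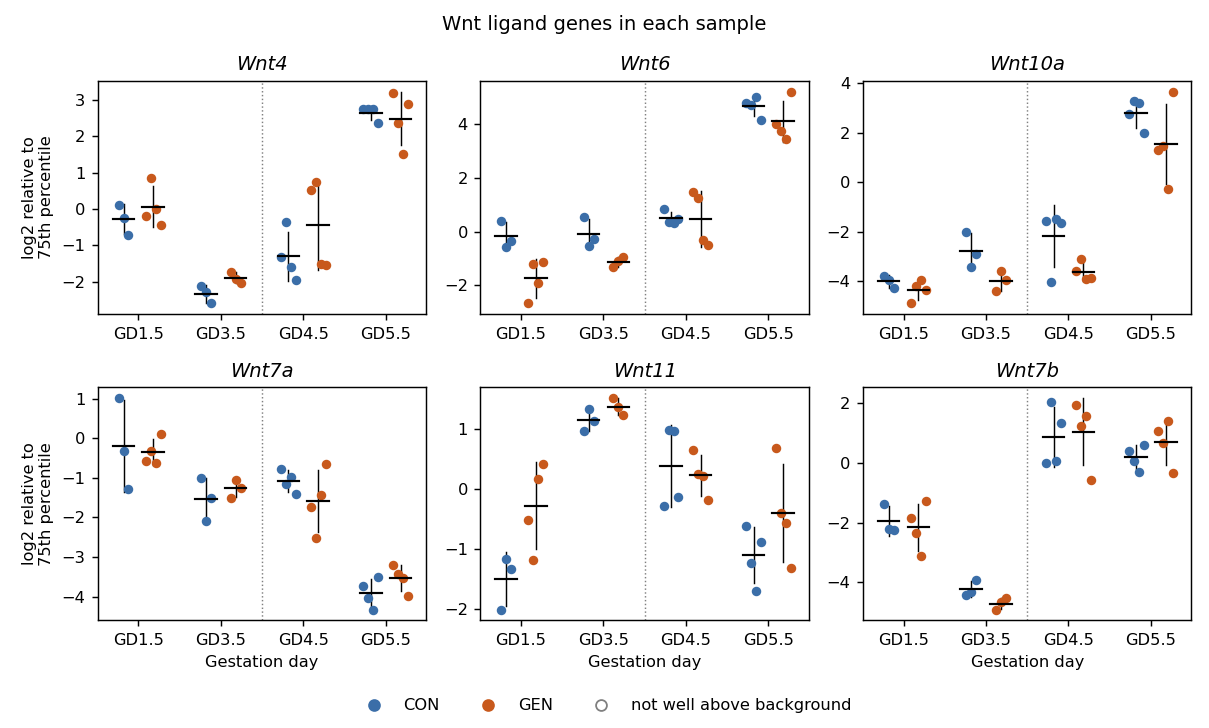
Levels of 6 ligand genes in each sample, as log2 intensity relative to the 75th percentile of the array, by gestation day, with CON in blue and GEN in orange, group mean and 1 SD as bars. Wnt4, Wnt6 and Wnt10a are highest at GD5.5, Wnt7a is lowest there, and Wnt11 rises while Wnt7b falls from GD1.5 to GD3.5.

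From GD1.5 to GD3.5 fewer members changed, 1 rising and 4 falling of 39 in CON, where 2.54% of all genes were called (1.15% rising, 1.39% falling), and 3 rising and 6 falling of 38 in GEN, where the share was 5.07% (2.58% rising, 2.49% falling). All 5 called in CON were called in GEN in the same direction, which is 55.6% of the 9. Wnt11 rose from -2.01, -1.17 and -1.32 to 0.98, 1.34 and 1.15 in CON (2.66, SE 0.439, adjusted p = 0.00110). In GEN it went from -0.51, -1.18, 0.18 and 0.42 to 1.52, 1.37 and 1.24 (1.65, SE 0.410, adjusted p = 0.0188). The days did not overlap in either exposure, and the GEN call was lost without any of 5 samples (adjusted p = 0.0584 to 0.0824). Wnt7b, a ligand of uterine epithelium, fell from -1.37, -2.23 and -2.24 to -4.43, -4.31 and -3.94 in CON (-2.28, SE 0.582, adjusted p = 0.0355) and from -1.85, -2.36, -3.13 and -1.28 to -4.93, -4.68 and -4.55 in GEN (-2.56, SE 0.545, adjusted p = 0.00639).

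Wnt4 fell over the same days, from 0.11, -0.25 and -0.71 to -2.10, -2.29 and -2.59 in CON (-2.05, SE 0.520, adjusted p = 0.0349) and from -0.18, 0.87, 0.0021 and -0.44 to -1.73, -1.91 and -2.03 in GEN (-1.95, SE 0.487, adjusted p = 0.0194). Wnt2 fell from -0.47, -0.43 and -1.04 to -1.94, -2.57 and -2.05 in CON (-1.54, SE 0.225, adjusted p = 3.20e-04) and from -0.47, -0.51, -0.62 and -0.18 to -2.33, -2.08 and -2.13 in GEN (-1.74, SE 0.211, adjusted p = 2.14e-05). For both genes every GD3.5 sample lay below every GD1.5 sample of its exposure. In CON the calls of Wnt4 and Wnt7b were lost without any 1 of the 6 samples (adjusted p up to 0.166 and 0.13). The Wnt4 call was also lost with the slide as a fixed block (0.349), with normexp (0.0978) and without the arrays of high adipocyte marker level (0.0622), and that of Wnt7b with normexp (-1.33, 0.316), normexp refitted (0.0668), quantile normalization (0.0585) and the replicate number as a block (0.0526). The calls of Wnt2 and Wnt11 in CON were kept under every alternative run. In GEN the Wnt4 call was lost without any of 3 samples (0.0790 to 0.0988) and the Wnt7b call with normexp alone (0.120). The level of Ovgp1, a gene of the oviduct, was -0.755 to 0.989 in CON at GD1.5 and 0.781 to 3.00 at GD3.5, and its part in these changes was not tested.

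From GD4.5 to GD5.5 Wnt7b did not pass the threshold, with -0.00030, 2.04, 0.073 and 1.36 and then 0.42, 0.067, -0.32 and 0.60 in CON, and 1.95, 1.26, 1.59 and -0.58 and then 1.06, 0.66, 1.41 and -0.35 in GEN. The remaining ligands gave little signal or little change. Wnt3a was not well above background on any of the 29 arrays, Wnt3 on 1, Wnt8a on 3, Wnt10b on 4, Wnt8b on 14, Wnt2b on 20 and Wnt9b on 28. Several of these lie beside another ligand gene: Wnt3a next to Wnt9a and Wnt3 next to Wnt9b on chromosome 11, and Wnt10b next to Wnt1 on chromosome 15. Wnt9a and Wnt1 were well above background on all 29 arrays. Wnt1 did not pass any test.

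Among the 12 receptors none was called between exposures. In the average 4 had an unadjusted p under 0.05: the receptors Fzd4 (0.22, SE 0.0679, adjusted p = 0.158) and Fzd9 (0.35, SE 0.127, adjusted p = 0.260) and the coreceptors Lrp6 (0.20, SE 0.0746, adjusted p = 0.267) and Lrp5 (-0.18, SE 0.0616, adjusted p = 0.202). Lrp5 thus had a negative and Lrp6 a positive difference. At GD4.5 Fzd4 stood at -1.53, -1.67, -1.61 and -1.61 in CON and -1.44, -0.88, -1.03 and -1.46 in GEN, without overlap, a difference of 0.40 (SE 0.127, adjusted p = 0.244). Lrp6 was -2.61, -2.32, -2.51 and -2.44 in CON and -2.15, -2.02, -2.23 and -2.26 in GEN on that day, also without overlap, and Lrp5 was -1.58, -1.52, -1.67 and -1.36 and -1.76, -1.59, -1.90 and -1.85. Fzd9 at GD3.5 was -4.96, -5.70 and -5.17 in CON and -4.67, -4.37 and -4.67 in GEN. Of the receptors 7 had no overlap between exposures at GD3.5, the day on which 20.3% of all genes had none.

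Fzd10, a Frizzled receptor, fell from GD1.5 to GD3.5. It went from 1.33, 1.22 and 0.36 to -1.47, -1.39 and -1.41 in CON (-2.39, SE 0.500, adjusted p = 0.00950) and from 0.83, 0.60, 0.32 and 0.75 to -1.16, -1.24 and -1.01 in GEN (-1.76, SE 0.467, adjusted p = 0.0283). The days did not overlap. At GD4.5 Fzd10 was -1.68, -0.87, -1.13 and -1.55 in CON and 0.0011, -0.33, -1.37 and 1.94 in GEN, where GEN 4 was the highest of the GD4.5 samples and GEN 3 lay inside the CON range. That difference of 1.37 (SE 0.434, adjusted p = 0.247) passed the threshold without GEN 3 (1.84, adjusted p = 0.0383), and the second Fzd10 probe gave 0.62. The change from GD1.5 lost its call in CON without CON 2 of GD1.5 (0.0550), with the mean over both probes (0.0722) and with the slide as a fixed block (0.0590), and in GEN with the mean over both probes (0.0574) and without any of 5 samples (up to 0.123).

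Fzd6, a receptor of planar cell polarity, was higher at GD3.5 than at GD1.5 in GEN, with 0.72, 0.12, 0.63 and 0.98 and then 1.43, 1.42 and 1.57 (0.86, SE 0.235, adjusted p = 0.0325). Its CON levels were 1.08, 0.83 and 1.09 and 0.77, 1.08 and 0.79 (-0.12, adjusted p = 0.936), and the difference between these changes was 0.98 (SE 0.344, adjusted p = 1.00). Fzd4 rose by 0.49 in GEN over the same days (SE 0.137, adjusted p = 0.0374), from -0.75, -0.93, -1.03 and -0.51 to -0.22, -0.34 and -0.39. In CON the mean of Fzd4 also went up, from -0.97 to -0.64, not past the threshold. The test of the difference between the exposures' changes over these days called 0 of 39 members and 0% of all genes. The GEN calls of Fzd6 and Fzd4 were lost without any of 6 of the 7 GEN samples (up to 0.151 for Fzd6 and 0.132 for Fzd4), and with normexp (0.0546 and 0.0774). From GD4.5 to GD5.5 Fzd6 fell in both exposures, by 1.06 in CON (SE 0.218, adjusted p = 8.61e-04) from -0.57, -0.76, 0.32 and -0.36 to -1.37, -1.51, -1.45 and -1.29, and by 0.79 in GEN (SE 0.218, adjusted p = 0.0139) from -0.96, -1.08, -0.32 and -0.033 to -1.63, -1.38, -1.21 and -1.31. The GEN call was lost with normexp (0.0948), with the slide as a fixed block (0.116) and without GEN 4 of GD4.5 (0.0706) or GEN 1 of GD5.5 (0.0547).

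Fzd1, a Frizzled receptor of the canonical branch, rose from GD4.5 to GD5.5. Its levels went from 3.28, 4.04, 3.33 and 3.36 to 4.48, 4.86, 4.16 and 4.44 in CON (0.98, SE 0.238, adjusted p = 0.00315) and from 4.25, 4.25, 3.20 and 2.97 to 4.36, 4.38, 4.21 and 4.59 in GEN (0.72, SE 0.237, adjusted p = 0.0329). The days overlapped in GEN, where GEN 1 and GEN 2 of GD4.5 were as high as GD5.5 samples, and not in CON. The GEN call was lost in 11 of 41 alternatives, among them the fixed slide block (0.56, adjusted p = 0.253). In GEN alone Fzd2 rose by 0.66 (SE 0.151, adjusted p = 0.00462) from 3.12, 3.16, 3.00 and 2.50 to 4.00, 3.61, 3.26 and 3.55, Fzd7 fell by 0.69 (SE 0.193, adjusted p = 0.0144) from -0.81, -1.04, -0.58 and -0.45 to -1.91, -1.37, -1.05 and -1.33, and Fzd4 fell by 0.35 (SE 0.127, adjusted p = 0.0494). Their CON differences were 0.29, -0.45 and 0.076, and the differences between the exposures' changes were 0.37, -0.24 and -0.43 (adjusted p = 0.736, 0.871 and 0.624). The mean over the 2 Fzd7 probes gave -0.020 (adjusted p = 0.926), so its fall rests on the brighter probe. The probes also disagreed on GEN minus CON. For Fzd2 the second probe gave -0.57 at GD4.5 and 1.10 at GD5.5, against -0.13 and 0.23 for the brighter. For Fzd7 it gave -0.35 and 0.20, against 0.22 and -0.022. The differences between the exposures' changes above are those of the brighter probes. The Fzd2 call was lost with normexp (0.0654) and with the slide as a fixed block (0.0971). The Fzd4 call was lost in 31 of 41 alternatives, and its sign turned with normexp (0.029).

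The R-spondin genes Rspo1 and Rspo3 did not differ between exposures beyond error, with averaged differences of 0.23 (SE 0.13, adjusted p = 0.640) and 0.023 (SE 0.188, adjusted p = 0.998). Both fell from GD4.5 to GD5.5 in CON. Rspo3 went from -2.39, -4.24, -2.80 and -3.06 to -5.39, -5.37, -4.29 and -4.87 in CON (-1.86, SE 0.355, adjusted p = 4.71e-04) and from -3.69, -3.98, -2.74 and -2.39 to -4.47, -4.62, -4.07 and -5.21 in GEN (-1.39, SE 0.354, adjusted p = 0.00885), without overlap. Rspo1 went from 4.26, 3.52, 4.18 and 3.86 to 2.37, 3.01, 3.36 and 2.97 in CON (-1.02, SE 0.245, adjusted p = 0.00293). In GEN its levels were 3.84, 3.60, 4.02 and 4.22 and 3.13, 3.72, 3.97 and 2.70, with overlap (-0.54, SE 0.244, adjusted p = 0.112). The Rspo3 call in CON was lost with normexp (-0.79, adjusted p = 0.0675). The call in GEN was lost with the slide as a fixed block (-0.96, adjusted p = 0.155), and with normexp its direction turned (0.58, adjusted p = 0.108).

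Of the 9 inhibitors 8 were tested in the average and none was called. Sfrp4, a secreted frizzled-related protein of the stroma, had -1.02 at GD3.5 (SE 0.385, adjusted p = 0.602), with 4.91, 3.74 and 5.13 in CON and 3.48, 3.70 and 3.56 in GEN. Sfrp2, of the same family, had -0.61 (SE 0.225, adjusted p = 0.574), with 2.89, 3.13 and 3.05 in CON and 2.6, 2.26 and 2.38 in GEN. Both were lower in all 3 GEN samples than in all 3 CON samples, on the day when 20.3% of genes were without overlap. In the average Sfrp2 had -0.27 (SE 0.104, adjusted p = 0.322), and Dkk2, a Dickkopf protein that binds the coreceptors, had 0.23 (SE 0.110, adjusted p = 0.494). Wif1, which binds ligands, had -0.75 (SE 0.279, adjusted p = 0.280) and was well above background on 3 arrays only, all of CON. It passed the filter through the exposure in which it was higher, so its p-value is no support of its own.

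With gestation the inhibitors changed in opposite directions. Sfrp5 rose most: it went from -4.45, -3.62, -3.43 and -5.05 to 1.47, 1.86, 0.37 and 1.19 in CON and from -3.34, -2.09, -5.40 and -4.98 to 0.67, -0.25, -1.53 and 1.47 in GEN. The rise was 5.36 in CON (SE 0.606, adjusted p = 1.82e-06) and 4.04 in GEN (SE 0.605, adjusted p = 1.62e-04), 41.2-fold and 16.5-fold. At GD4.5 GEN 2 was the highest sample and GEN 3 the lowest. Sfrp2 fell over the same days, from 2.84, 2.94, 2.63 and 2.64 to 2.21, 1.63, 1.95 and 2.18 in CON (-0.77, SE 0.196, adjusted p = 0.00476) and from 3.1, 2.95, 2.88 and 2.21 to 1.79, 1.96, 2.07 and 1.61 in GEN (-0.92, SE 0.195, adjusted p = 0.00265). Sfrp1 rose by 0.51 in GEN (SE 0.159, adjusted p = 0.0252) from 1.52, 1.74, 2.09 and 1.26 to 2.02, 2.19, 2.25 and 2.21, and had 0.11 in CON. The Sfrp1 call was lost in 10 alternatives, among them quantile normalization (0.0741) and the mean over its probes (0.101). Sfrp4 fell by 1.35 from GD1.5 to GD3.5 in GEN (SE 0.360, adjusted p = 0.0289), from 5.54, 4.81, 4.10 and 5.27 to the 3 levels given above. That fall was -0.88 (adjusted p = 0.255) without the arrays of high adipocyte marker level, and its call was also lost without any of 6 of the 7 GEN samples (0.0563 to 0.115), with the slide as a fixed block (0.0575) and in a fit of only the arrays compared (0.0536). In CON the mean of Sfrp4 went from 5.34 to 4.60 over these days, not past the threshold.

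Dkk1, a Dickkopf inhibitor, had 2 probes that disagreed in size. The brighter gave no signal well above background on the 3 earlier days, so it passed the filter through GD5.5 alone, the day on which it was high, and its p-values are no support of their own. At GD5.5 it stood at -3.52, -4.38, -3.06 and -4.36 in CON, all 4 well above background, and at -4.79, -5.59, -6.97 and -3.28 in GEN, where GEN 3 was not. At GD4.5 the signals were -8.05, -7.36, -8.45 and -6.91 in CON and -8.33, -6.85, -6.47 and -8.11 in GEN. Each GD4.5 array was set at the higher of the probe's own signal and that of the dimmest probe still well above background. Against this, the brighter Dkk1 probe was 14.6-fold higher at GD5.5 in CON and 4.77-fold higher in GEN. The plain differences had an adjusted p of 8.23e-05 in CON and 0.0123 in GEN. In CON the fold equals the plain difference of 3.86 between the days. Both folds are taken against signals not well above background, so neither is a firm lower bound. The CON call was lost with normexp (0.97, adjusted p = 0.0545), and the GEN call with the slide as a fixed block (0.0807) and without the arrays of high adipocyte marker level (0.0774). The other probe went from a mean of -6.13 to -5.00 in CON, with 1 and 4 arrays well above background, and from -6.06 to -5.53 in GEN, with 1 and 2. Between exposures at GD5.5 the difference was -1.33 (SE 0.617, adjusted p = 0.870), and the samples overlapped. Dkk3 fell by 0.72 in CON (SE 0.220, adjusted p = 0.0151) from 1.49, 1.68, 1.29 and 1.34 to 0.60, 0.69, 0.95 and 0.66, a call lost with the array median as the scale (0.0665). Dkk2 rose by 0.54 in CON (SE 0.206, adjusted p = 0.0492) from -0.15, -0.11, -0.14 and -0.18 to 0.67, 0.12, 0.43 and 0.36, a call lost in 28 of 41 alternatives. In GEN the means went from 1.31 to 0.98 for Dkk3 and from 0.13 to 0.20 for Dkk2, neither past the threshold. Dkk4 was well above background on 2 arrays.

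**Figure D4:**
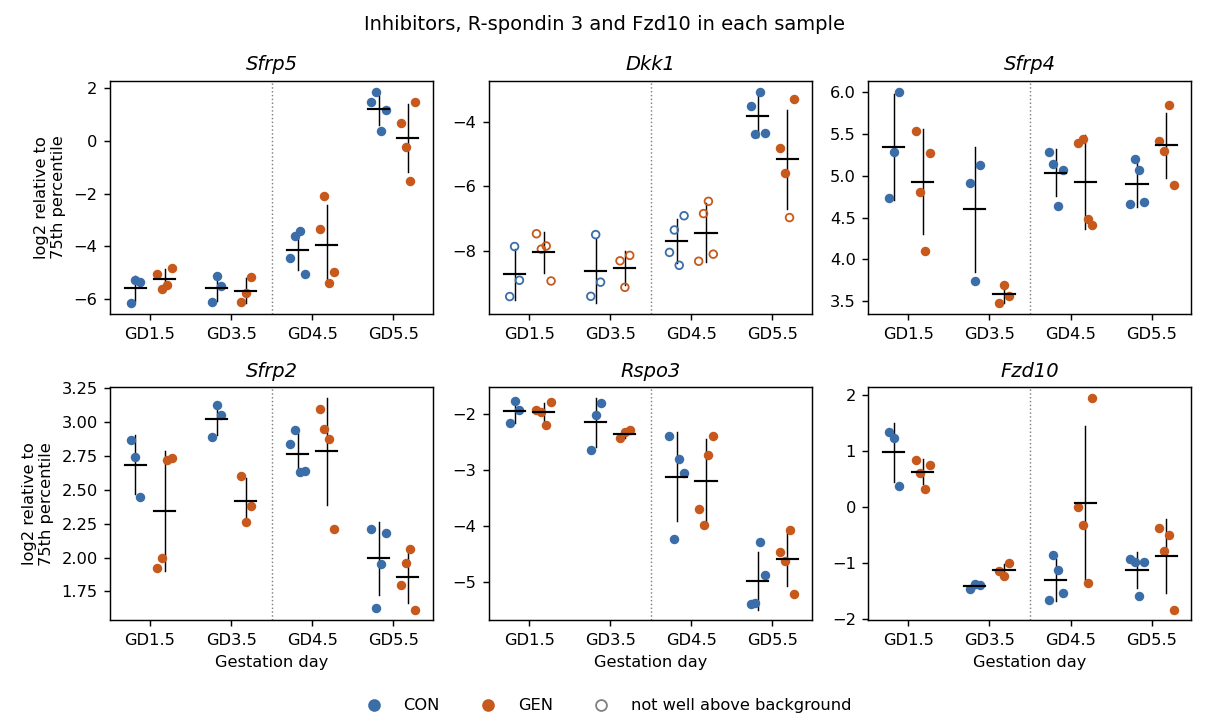
Levels of 4 inhibitors, Rspo3 and Fzd10 in each sample, as log2 intensity relative to the 75th percentile of the array, by gestation day, with CON in blue and GEN in orange, group mean and 1 SD as bars, and open points for signals not well above background. Sfrp5 and Dkk1 are highest at GD5.5, Sfrp2 and Rspo3 are lowest there, and Fzd10 falls from GD1.5 to GD3.5.

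Most members called from GD4.5 to GD5.5 in one exposure were called in the other. Of the 19 members called in CON and the 15 called in GEN, 11 were called in both, all in the same direction (57.9% of the first list and 73.3% of the second). These were Dkk1, Fzd1, Sfrp5, Wnt10a, Wnt4 and Wnt6, which rose (Dkk1 with the limit given above on its filter), and Fzd6, Rspo3, Sfrp2, Tcf7 and Wnt7a, which fell. The test of the difference between the exposures' changes called 0 of 42 members, with 2 at an unadjusted p under 0.05, where 0.00443% of all genes were called and 7.44% had such a p. In a fit of the 8 GEN arrays of these days alone no gene of the array was called, with Wnt10a at an adjusted p of 0.0833, while 14 members had an unadjusted p under 0.05. The summed level of 6 genes listed as ovary markers was 0.163 to 0.747 at GD4.5 and 2.77 to 3.31 at GD5.5 in CON. There the mean level of Cyp11a1, a steroid-synthesis enzyme and 1 of the 6, went from -5.07 to 2.82. The median sum at GD5.5 in CON was 2.98, so the rise of the sum rested mainly on Cyp11a1 and not on the list as a whole. In GEN the sum was -0.229 to 0.78 and then 0.865 to 3.26, and its part in these changes was not tested.

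**Figure D5:**
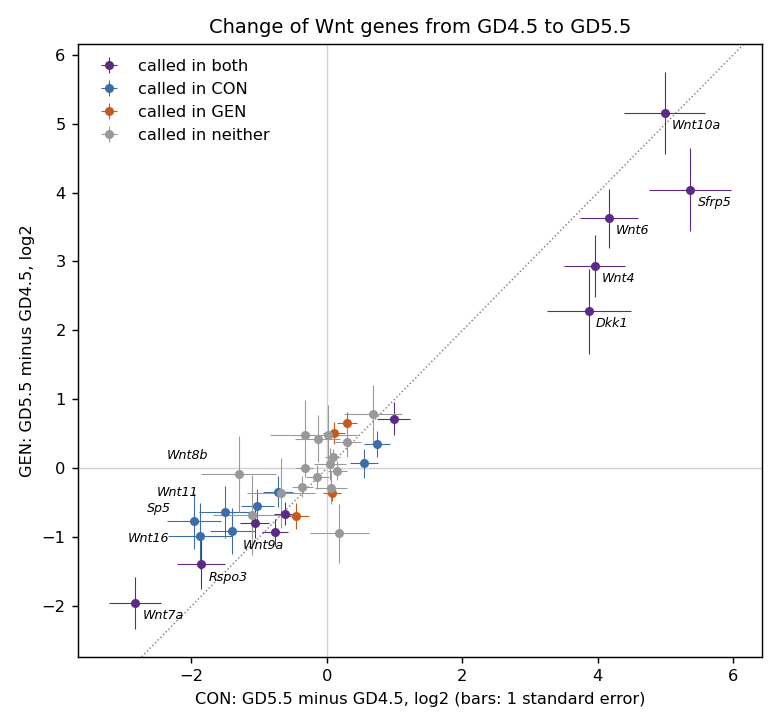
Change from GD4.5 to GD5.5 in log2 for each member tested in both exposures, in CON on the horizontal and in GEN on the vertical axis, with bars of 1 standard error and the line of equal change dotted. Sfrp5, Wnt10a, Wnt6, Wnt4 and Dkk1 lie at the upper right, Wnt7a at the lower left, and 11 genes are called in both exposures.

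Of 63 other genes of the pathway, from secretion to targets, 1 was called in the average between exposures, a share near the 1.04% of all genes. Lgr5, a receptor for R-spondins and a marker of gland and other epithelial progenitors, had an averaged difference of -1.13 (SE 0.258, adjusted p = 0.0300). Its mean level was -3.58 ± 0.687 in CON and -5.92 ± 0.0533 in GEN at GD3.5 (SD, n = 3 each), the day of its largest difference (-2.34, adjusted p = 0.127). The call was lost with quantile normalization (adjusted p = 0.0547), with the slide as a fixed block (0.10), with the mean over its probes (-0.45, 0.189), without the arrays of high adipocyte level (0.152), with either form of normexp (0.651 and, refitted, 0.0584) and without 11 of the single samples. Lgr6, its relative, had 0.63 (adjusted p = 0.0849), not past the threshold.

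From GD4.5 to GD5.5, 11 of 62 of these genes rose and 14 fell in CON, where 16.5% of all genes rose and 14.4% fell. In GEN 2 of 62 rose and 5 fell, where 13.2% of all genes rose and 9.2% fell. All 7 called in GEN were among those called in CON. Notum, an enzyme that removes the lipid of Wnt proteins, rose by 2.48 in CON (SE 0.486, adjusted p = 5.98e-04) and 2.15 in GEN (SE 0.485, adjusted p = 0.00416). Ror1, a receptor of the non-canonical branch, rose by 2.13 in CON (SE 0.306, adjusted p = 2.76e-05) and 1.33 in GEN (SE 0.306, adjusted p = 0.00485). Porcn, which adds the lipid to Wnt proteins, fell by 1.17 in CON (SE 0.28, adjusted p = 0.00292) and 1.10 in GEN (SE 0.28, adjusted p = 0.00886), and Msx1, a homeobox gene of the receptive uterus, fell by 2.82 in CON (SE 0.434, adjusted p = 5.60e-05) and 1.75 in GEN (SE 0.433, adjusted p = 0.00744). Beta-catenin itself, Ctnnb1, rose by 0.93 in CON (SE 0.145, adjusted p = 6.56e-05). In GEN it was not called, and no rise in its list of 12 genes exceeded 0.40. The test of the difference between the exposures' changes from GD4.5 to GD5.5 called 0 of 62 of these genes, against 0.00443% of all genes. From GD1.5 to GD3.5 the calls were Rspo2 in CON (2.28, SE 0.576, adjusted p = 0.0336), and in GEN Myc (0.98, SE 0.266, adjusted p = 0.0318), Lgr5 (-2.71, SE 0.525, adjusted p = 0.00284) and Nkd2 (-1.49, SE 0.270, adjusted p = 0.00159). The test of the difference between these changes of the exposures called 0 of 62 of these genes and 0% of all genes. A call in 1 exposure alone is thus no shown difference between CON and GEN.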

How the data were processed

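RNA of 29 uterus samples was labelled with Cy3 (500 ng each) and hybridised to single-colour Agilent mouse arrays, 1 sample per array. The deposited intensity values are the processed signals of the scanner software (Agilent Feature Extraction 9.5, per the submitters' processing notes), and the series' deposited value table held the same intensity values, with 0% difference. Each array's log2 intensity was reduced by that of its 75th percentile over the 43379 spots that are not controls, outlier spots were left out, and spots of a probe were averaged. The probe brightest over the 29 arrays stood for a gene. Of the 41174 probes 22951 were named through their accession in RefSeq, 6659 by a current symbol and 3109 by a synonym, and 8455 kept the name in the deposited file. Probe positions are those of the files (mm7), and no annotation of that build was used. A model with 1 mean per group was fitted over all arrays with limma 3.58.1 in R 4.3.3, and p-values were adjusted by the Benjamini-Hochberg method over all genes that at least 3 arrays in the groups of a comparison showed well above background. The fit was tested on simulated data.

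The members, the other pathway genes and the marker lists were chosen with earlier results of these data known. The genes named are those called in any comparison, those with an unadjusted p under 0.05 in the average or on at least 2 days, and key members with a known role in the uterus. Their values are printed by sample for the days on which a comparison turns, not for every day. At GD5.5 the deviations of all 4 same-numbered pairs of CON and GEN samples correlated above 0.1 (0.331 to 0.426), so that day was also fitted alone with the sample number as a block, with 0 members called (3 at an unadjusted p under 0.05). At GD4.5 3 of 4 pairs did (-0.095 to 0.49). In all 42 alternatives were tried: background correction, scaling, probe choice, filter, blocks by slide or sample number, fewer arrays, and 3 chosen after seeing the data (without 8 arrays of high adipocyte marker level, normexp refitted, and that block at GD5.5).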

Additional observations from a re-analysis of the deposited data

Results flagged for a closer look

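In groups of 4 samples, a sample whose gap to the nearest other exceeded Dixon's critical share of the group's range was found in 9 of 175 groups of the 35 named members (5.14%), and chance gives about 1 in 20. In GEN at GD1.5, sample 2 was far from the others for Axin2 (-5.07, others -0.89 to -0.68) and sample 4 for Fzd9 (-4.59, others -5.32 to -5.28). In CON at GD4.5, sample 2 stood apart for Fzd1 (4.04, others 3.28 to 3.36) and for Wnt10a (-4.05, others -1.65 to -1.51). In GEN at GD4.5, sample 4 stood apart for Sp5 (-2.40, others -4.50 to -4.18) and for Wnt16 (-1.94, others -0.041 to 0.24). In CON at GD5.5, sample 3 was low for Fzd10 (-1.60, others -0.99 to -0.93), and sample 4 was high for Fzd4 (-1.38, others -1.59 to -1.56) and low for Wnt4 (2.35, others 2.74 to 2.75).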

How the results depend on the processing

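Of the values of named genes under the alternatives, 3597 kept their direction and side of the threshold, 206 lost a call, 9 gained one and 11 turned direction. Members called without 1 sample ranged from 0 to 0 between exposures at GD1.5, 0 to 1 at GD3.5, 0 to 2 at GD4.5, 0 to 0 at GD5.5 and 1 to 3 in the average, and were 0 to 0 in the differences between days. From GD1.5 to GD3.5 they ranged from 2 to 6 in CON and 3 to 10 in GEN. Between GD4.5 and GD5.5 they ranged from 18 to 20 in CON and 10 to 17 in GEN. With normexp, members called were 0 at GD4.5, 16 at GD5.5, 2 in the difference between GD5.5 and GD4.5, and 3 from GD1.5 to GD3.5 in CON. With normexp refitted without spots of local background over 100, 1 was called at GD3.5. With the slide as a fixed block 3 were called from GD1.5 to GD3.5 in CON and 6 from GD4.5 to GD5.5 in GEN. In fits of only the arrays compared 0 were called by limma at GD4.5 and 0 in GEN for GD5.5 against GD4.5 (4 and 14 at an unadjusted p under 0.05); for the average this fit could not be made.

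With normexp these turned direction: Fzd9 at GD3.5 (-0.087), Dkk1 (0.93) and Sp5 (0.72) at GD5.5, Wif1 (0.085) and Wnt8a (0.13) in the average, the difference of Sp5 between GD4.5 and GD3.5 (0.034, and 0.089 refitted), and in GEN, GD5.5 against GD4.5, Fzd4 (0.029), Lgr5 (0.35), Rspo3 (0.58) and Sp5 (0.95). Normexp left a 5th percentile of intensity of 85.5 to 540 on 6 arrays, against 59.1 to 66.0 on the others, and of 59.1 to 70.8 on all when refitted.

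Same-numbered CON and GEN samples were not alike on every day: their deviations correlated above 0.1 in 7 of 13 pairs, none of them at GD1.5 or GD3.5. GD4.5 was not fitted alone with the sample number as a block. The replicate number was also used as a block shared by all days, which does not model pairs within a day. With it, Wnt7b from GD1.5 to GD3.5 in CON (adjusted p = 0.0526) and Fzd4 from GD4.5 to GD5.5 in GEN (adjusted p = 0.0533) lost their calls, and no other named gene changed its call. Signal over background limits Wnt3a, Wnt3, Dkk4, Wif1, Wnt8a, Wnt10b and Dkk1, and slides separate GD3.5 from GD4.5.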
